A study of Mus musculus with 16 samples.

Results

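Lysolecithin lesions of the mouse spinal cord were compared at day 5 between mice with a free running wheel (exercise) and mice whose wheel was locked (control). The compared libraries were chosen by their labels: 4 exercise libraries (replicates 1, 2, 7 and 12) and 4 control libraries (replicates 1, 2, 5 and 6). They are 8 of the 16 libraries of the series, whose other 8 were collected at day 10. All mice were C57BL/6 animals 8 to 12 weeks old. Every one of them had received the lysolecithin injection, so that the controls carry the lesion too and no library stands for uninjured cord. Each lesion was taken from frozen cord by laser microdissection, and its RNA was amplified (REPLI-g) before poly(A) selection and strand-specific, single-end sequencing of 75 nt, per the labels' protocols. The question was which transcripts of the lesion differed with running by day 5. Whether each library came from its own animal is not stated in the labels, and the p-values measure only the spread between these libraries.

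Lysolecithin dissolves myelin membranes where it is injected and spares most of the axons. In the first days after injection microglia and macrophages clear myelin debris while oligodendrocyte precursors divide and migrate in, and new myelin follows later. A lesion therefore holds glia, immune cells, vessels and the axons that cross it, and the cell bodies of neurons where the dissected area reaches grey matter. Cells that make much secreted or membrane protein, as these glia and phagocytes do, depend on the endoplasmic reticulum (ER), where chaperones fold the proteins and a quality-control pathway removes those that misfold. Voluntary running is known to raise the coactivator PGC1a, the driver of mitochondrial biogenesis, in muscle.

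The libraries held 11.2 to 13.93 M counts (M, 1000000 counts) in control and 8.13 to 10.93 M in exercise, so that each exercise library was shallower than each control library. Of all counts, 8.05% to 10.28% in control and 10.91% to 12.94% in exercise fell on mt-Rnr2, which encodes mitochondrial ribosomal RNA, again without overlap. Libraries of unlike group were as similar as libraries of one group, with Spearman correlations across genes of 0.97 to 0.983 between groups and 0.974 to 0.981 within either group. Multidimensional scaling put 21.2%, 17.3% and 14.8% of the variance on its leading dimensions, and neither of the first 2 separated the groups. The shallowest library, exercise replicate 2, stood apart on the second dimension at 1.39, where the other 7 lay between -0.67 and 0.27. Markers of cord tissue were abundant in all 8 libraries, with the myelin gene Mbp between 4120 and 7330 CPM, the astrocyte gene Gfap between 1730 and 3670 CPM and the phagocyte gene Cd68 between 874 and 1310 CPM (counts per M of effective library size). Markers of muscle and neutrophils were low, and those of Schwann cells and meninges were not. The summed level of 8 muscle genes was 0.318 to 1.09 CPM in control and 0.921 to 1.77 in exercise, with Myh1, Myh2 and Myh4 at 0 in all 8 libraries. The 11 neutrophil genes summed to 6.18 to 25.9 CPM and 13.5 to 26.6 CPM, with Elane, Mpo and Ngp at 0, and the 12 Schwann cell genes summed to 467 to 570 CPM in control and 431 to 465 CPM in exercise. The Schwann cell sums did not overlap, but most of each sum was Pmp22 (322, 345, 397 and 388 CPM in control, 298, 323, 300 and 275 in exercise), whose groups did, as did the mean log2 CPM over the list (2.59 ± 0.69 and 2.5 ± 0.41, SD, n = 4 each). The mean log2 CPM of fibroblast and meningeal genes was 5.4 ± 0.89 in control and 5.5 ± 0.33 in exercise.

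No gene was called different between exercise and control by edgeR's quasi-likelihood test at an adjusted p of 0.05, that is 0% of the 15096 genes tested of 46078 in the table. At an unadjusted p under 0.05 the same test held 740 genes higher in exercise (4.9%) and 773 lower (5.12%). These shares are the background for the gene groups below. Without control replicate 5 the lower genes numbered 469 and the higher genes 545. All 4 exercise libraries lay above all 4 control libraries for 502 genes (3.33%) and below them for 599 (3.97%). A log2 fold change above 0 was found for 7790 genes (51.6%) and one below 0 for 7306 (48.4%). The call depended on the tool: DESeq2 fitted to the 8 libraries called 108 genes higher (1.07% of the 10093 it tested) and 160 lower (1.59%), DESeq2 on all 16 libraries called 24 higher (0.38% of 6315) and 51 lower (0.808%), and limma-voom called 0. In the authors' deposited table for day 5, 107 genes were higher and 164 lower at an adjusted p under 0.05, and DESeq2 on the 8 libraries called 258 of these 271 here. All differences below are described as higher or lower in exercise, with their test, since none passed edgeR's threshold.

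The 12 higher genes with the smallest p include a lipid kinase, a peroxisomal oxidase, a chromatin subunit, an autophagy receptor and 2 proteins encoded in the mitochondrial genome. Values are given for control replicates 1, 2, 5 and 6 and then for exercise replicates 1, 2, 7 and 12. Prune2, which encodes a BCH-domain protein abundant in the nervous system and lies on chromosome 19 of GRCm38 at 16956118 to 17223932 on the plus strand, had 42.2, 41.7, 40 and 44.9 CPM in control and 66.4, 82.9, 54.6 and 76.8 in exercise. The control libraries lay close together and every exercise library lay above them; the log2 fold change was 0.73 (SE 0.12, adjusted p 0.147 by edgeR). Pdpn, which encodes podoplanin, a surface glycoprotein of reactive astrocytes (chromosome 4, 143267431 to 143299564, minus strand), had 30.8, 33.3, 17.6 and 26.2 CPM in control and 40.2, 56.4, 48.2 and 45.6 in exercise (27 ± 6.9 and 47.6 ± 6.75, SD, n = 4 each). Its lowest exercise library was above its highest control library, and the difference was 0.81 on the log2 scale (SE 0.16, adjusted p 0.212 by edgeR).

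Acox3, the peroxisomal oxidase of branched-chain fatty acids, had 30.7, 36.2, 32.7 and 42 CPM in control and 50.3, 50.5, 54.8 and 49.3 CPM in exercise. The 4 exercise libraries were nearly level and all above control. Pi4ka, the kinase that makes phosphatidylinositol 4-phosphate at the plasma membrane, had 74.2, 86, 60.8 and 74.3 CPM in control against 105, 107, 96.2 and 112 in exercise. Kidins220, a scaffold of neurotrophin receptors, had narrow groups, at 69.3, 68.6, 67.8 and 69.3 CPM in control and 89.9, 90.5, 85.8 and 91.4 in exercise. Its log2 difference of 0.38 was also the least of the 12 (SE 0.09, adjusted p 0.234 by edgeR). Arid1b, a DNA-binding subunit of the BAF chromatin remodelling complex, had 21.8, 17.5, 12.9 and 20.2 CPM in control and 33.2, 37.5, 36.3 and 28.1 in exercise. Slfn9, of the Schlafen family, was low in control (3.26, 3.17, 2.5 and 2.76 CPM) and spread widely in exercise (8.94, 7.6, 4.15 and 11.7 CPM), with the largest log2 difference of the 12 at 1.47 (SE 0.32, adjusted p 0.234 by edgeR). Zfp180 (0.78), Tax1bp1 (0.55), an autophagy receptor, and Timm9 (0.69), a chaperone of mitochondrial protein import, were the remaining nuclear genes, each with groups that did not overlap.

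The 12 leading lower genes include an importin, a subunit of the ER translocation channel, a selenoprotein of the ER and a transcription elongation factor. Ipo11, which encodes importin 11, a carrier of proteins into the nucleus (chromosome 13, 106794439 to 106936958, minus strand), had 274, 269, 316 and 242 CPM in control and 197, 194, 199 and 181 in exercise. The exercise libraries lay within a narrow band under the lowest control library, with a log2 difference of -0.52 (SE 0.09, adjusted p 0.147 by edgeR). Sec61b, the beta subunit of the channel through which new proteins enter the ER (chromosome 4, 47474658 to 47483242, plus strand), had 25.4, 37.4, 38.6 and 35 CPM in control and 17, 18.6, 22.8 and 21.9 in exercise (log2 -0.76, SE 0.15, adjusted p 0.212 by edgeR). Control replicate 1 was the low one of its group and still above all exercise libraries.

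Bin3, an N-BAR protein that acts on membrane and actin, had tight groups, 18.9, 19.7, 19.2 and 21.2 CPM in control against 12.8, 12.5, 13.1 and 12.2 in exercise. Gpn3, a GTPase needed to bring RNA polymerase II into the nucleus, had 27.8, 28.3, 38 and 28.7 CPM in control and 13.3, 17.1, 19.5 and 13.5 in exercise (log2 -0.96, SE 0.21, adjusted p 0.234 by edgeR). Tcea1, the elongation factor that restarts stalled RNA polymerase II, had 388, 378, 383 and 373 CPM in control and 286, 278, 255 and 236 in exercise. In all 3 genes every exercise library lay under every control library, and in Bin3 and Tcea1 the gap between the groups was wider than the range of either. Leprot, which restrains leptin receptor at the cell surface, had 425, 448, 492 and 388 CPM in control and 321, 336, 296 and 299 in exercise. Tmem160 had the largest log2 difference of the 12 at -1.09, from 9.7, 9.16, 15.6 and 15 CPM to 5.6, 4.56, 5.79 and 7.18 CPM. Tmem18 (-0.49), Lmo4 (-0.58), a transcription cofactor, Gipc1 (-0.51), an endocytic adaptor, Snrpe (-0.50), a core protein of the spliceosome, and Selenos, described with the ER genes, completed the 12. DESeq2 on the 8 libraries called 11 of the 12 higher and all 12 lower genes. Of all genes it tested, it called 1.07% higher and 1.59% lower. The genes named here were chosen by their p in a test of the same libraries, which favours such calls.

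**Figure D1:**
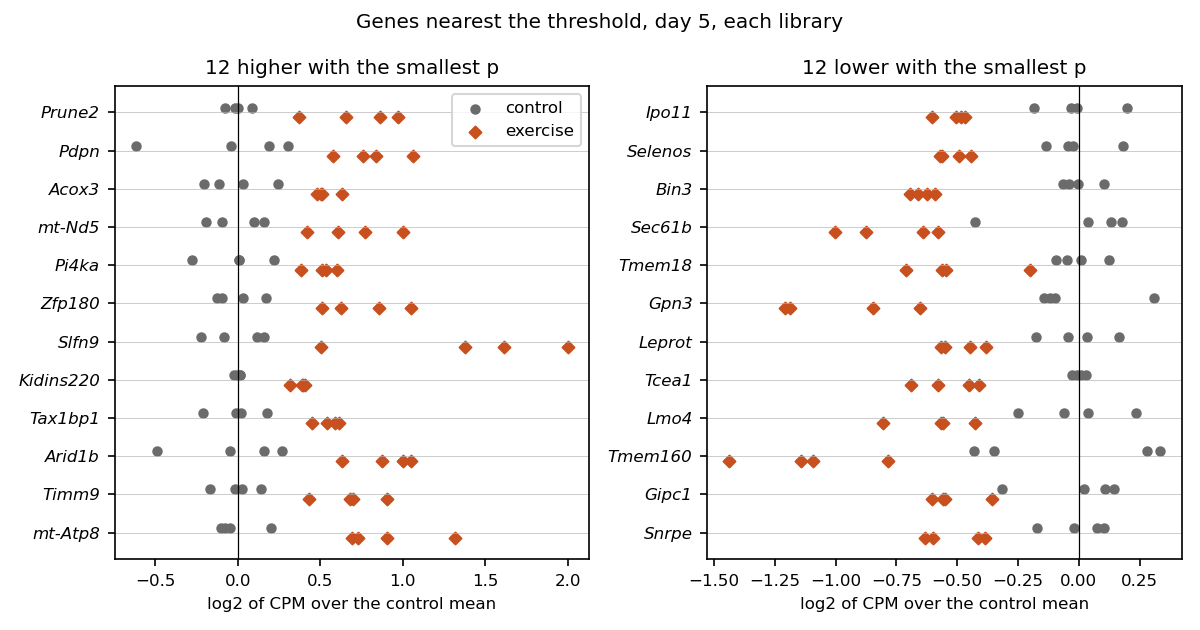
Expression of the 12 higher (left) and 12 lower (right) genes with the smallest p in each library of day 5, as log2 of CPM over the mean of the 4 control libraries; grey circles are control libraries and orange diamonds exercise libraries. In each of the 24 genes the diamonds and circles do not overlap, which the choice by p favours, and the fitted log2 differences of the higher genes run from 0.38 to 1.47.

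Gene groups were read by counting members past the same unadjusted p, beside 4.9% higher and 5.12% lower over all genes. In such bulk samples more cells of a type and more RNA per cell cannot be told apart, nor can more grey matter in the dissected area. The members were chosen with earlier results of these data known, so the counts describe the lists and test nothing. Among the lists described here, those with the largest share of members higher were mitochondrially encoded proteins (5 of 9, 55.6%), motor neurons (5 of 12, 41.7%), neuronal cytoskeleton (8 of 22, 36.4%) and axonal channels (4 of 16, 25%). Those with the largest share lower were ER folding, degradation and stress (11 of 28, 39.3%), ER translocation and glycosylation (7 of 29, 24.1%), cytosolic ribosomal proteins (14 of 78, 17.9%), importins and exportins (4 of 24, 16.7%) and mitochondrial ribosomal proteins (12 of 76, 15.8%). The lists of microglia, macrophages, phagocytosis, astrocytes, fibroblasts, Schwann cells and interferon response had no member past that p in either direction.

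**Figure D2:**
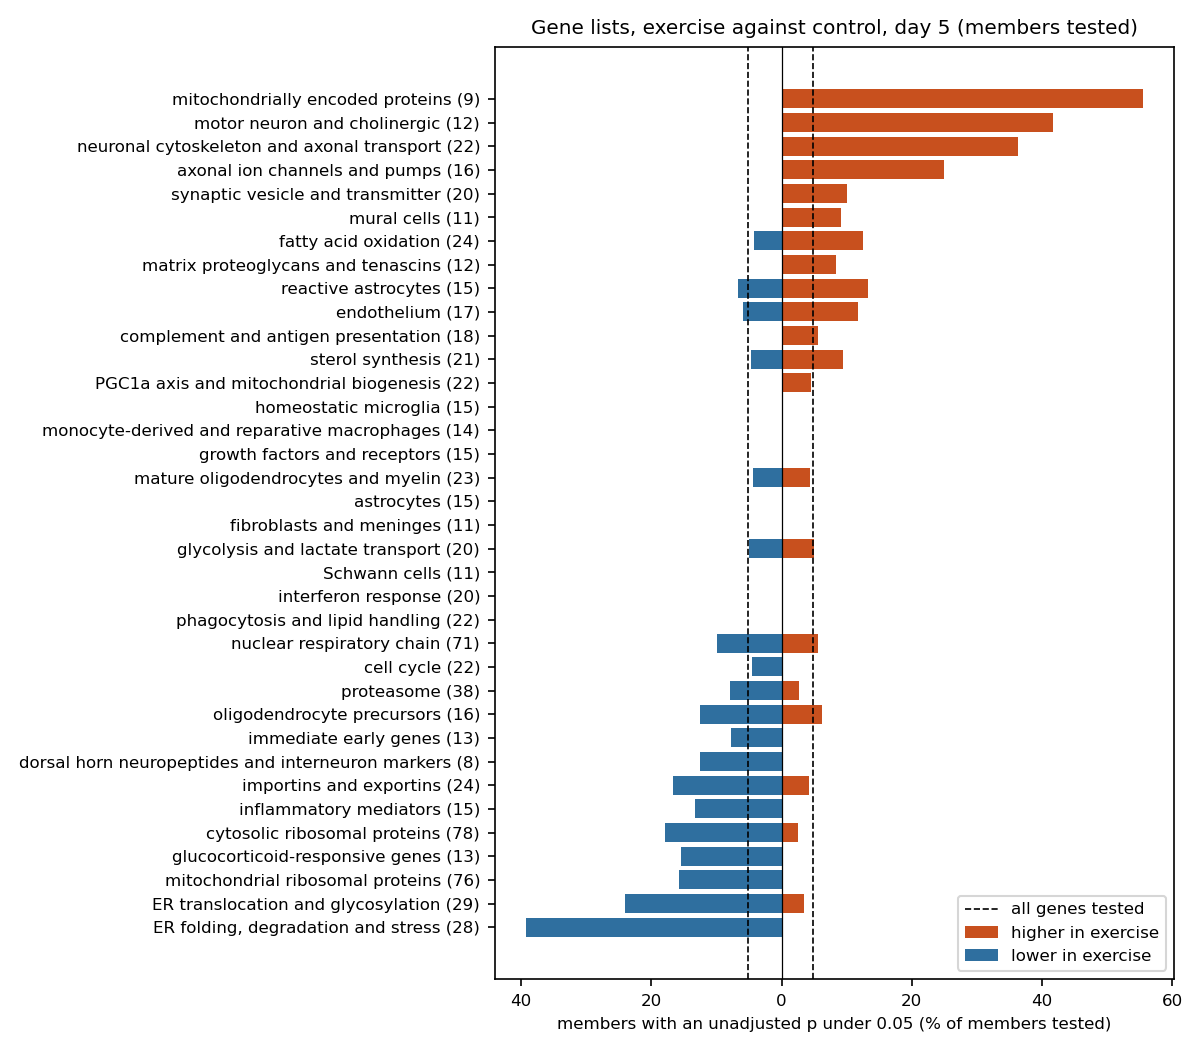
Share of the members of each gene list with at least 8 tested members that had an unadjusted p under 0.05 in edgeR's test at day 5, higher in exercise to the right (orange) and lower to the left (blue), with the number tested in parentheses; the dashed lines are the shares over all genes tested, 4.9% and 5.12%. The mitochondrially encoded, motor neuron, cytoskeleton, channel and synaptic lists extend to the right, the ER and ribosomal lists mostly to the left, and the dorsal horn list only to the left.

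The ER list holds the chaperones, disulfide isomerases, degradation factors and sensors of the unfolded protein response, the programme by which cells match ER capacity to load. Of its 28 members 24 were lower in exercise and 4 higher (background 48.4% lower), 11 had an unadjusted p under 0.05 and all 11 were lower, and 12 had every exercise library below every control library (background 3.97%). The median log2 difference was -0.26, beside 0.01 over all genes tested. The mean log2 CPM of the list was 6.82, 6.85, 6.96 and 6.89 in control and 6.6, 6.48, 6.73 and 6.65 in exercise, so that the groups did not overlap. No member had an adjusted p under 0.212 by edgeR. DESeq2 on the 8 libraries called 7, all lower, beside 1.59% lower and 1.07% higher of all genes it tested.

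Among the regulators, Xbp1, the transcription factor that the sensor IRE1 activates by splicing (chromosome 11, 5520659 to 5525893, plus strand), had 200, 203, 228 and 198 CPM in control and 133, 131, 163 and 144 in exercise. The highest exercise library lay well under the lowest control library, and the log2 difference was -0.54 (SE 0.13, adjusted p 0.268 by edgeR). The sensors themselves showed smaller differences: Eif2ak3 (PERK) at -0.17, Atf6 at -0.02 and Ern1 (IRE1) at 0.11 on the log2 scale, all with overlapping groups. Atf4 (0.08) and Ddit3 (0.06), transcription factors that PERK signalling induces, also overlapped.

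Of the factors that draw misfolded proteins out of the ER for degradation, Selenos (chromosome 7, 66079649 to 66089405, plus strand), a membrane selenoprotein, had 93.7, 86.7, 108 and 92.2 CPM in control and 64.1, 67.7, 70 and 64.4 in exercise. The log2 difference was -0.52 (SE 0.10, adjusted p 0.212 by edgeR), the smallest p of the list. Herpud1, an organiser of the degradation complex, had 50.2, 50.6, 70 and 54.9 CPM in control and 33, 28.1, 46.9 and 42.8 in exercise, again without overlap. The derlins, channel proteins of the same complex, were lower as well: Derl2 had 77.2, 75.1, 94.2 and 74.5 CPM in control and 66.3, 53.3, 61.2 and 49 in exercise, and Derl1 had 449, 418, 470 and 487 CPM in control and 368, 354, 361 and 367 in exercise. Sel1l, the scaffold of the ligase that marks these proteins, differed by -0.27 and Selenok by -0.23, both without overlap, whereas the ligase Syvn1 itself (-0.13) overlapped.

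Among the chaperones, Hspa5, which encodes BiP, the main Hsp70 of the ER, had 379, 349, 458 and 420 CPM in control and 268, 199, 325 and 311 in exercise. Manf, a secreted partner of BiP with trophic activity on neurons, had 526, 607, 911 and 682 CPM in control and 409, 484, 407 and 484 in exercise. Both had groups that did not overlap, with log2 differences of -0.54 (SE 0.18, adjusted p 0.363 by edgeR) and -0.61 (SE 0.17, adjusted p 0.279 by edgeR). Creld2, a small ER stress protein, had the largest difference of the list, -1.05 (SE 0.42, adjusted p 0.433), with 22.8, 45.5, 27.1 and 28.7 CPM in control and 10.5, 6.84, 18.6 and 23.7 in exercise, and its groups overlapped at 1 library each. Hsp90b1 (-0.32), Pdia3 (-0.34) and Canx (-0.24), which fold glycoproteins, had unadjusted p-values above 0.05 but no overlap between groups. Calr, Hyou1 and Pdia4, at -0.01, -0.01 and 0.16, did not follow the others.

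**Figure D3:**
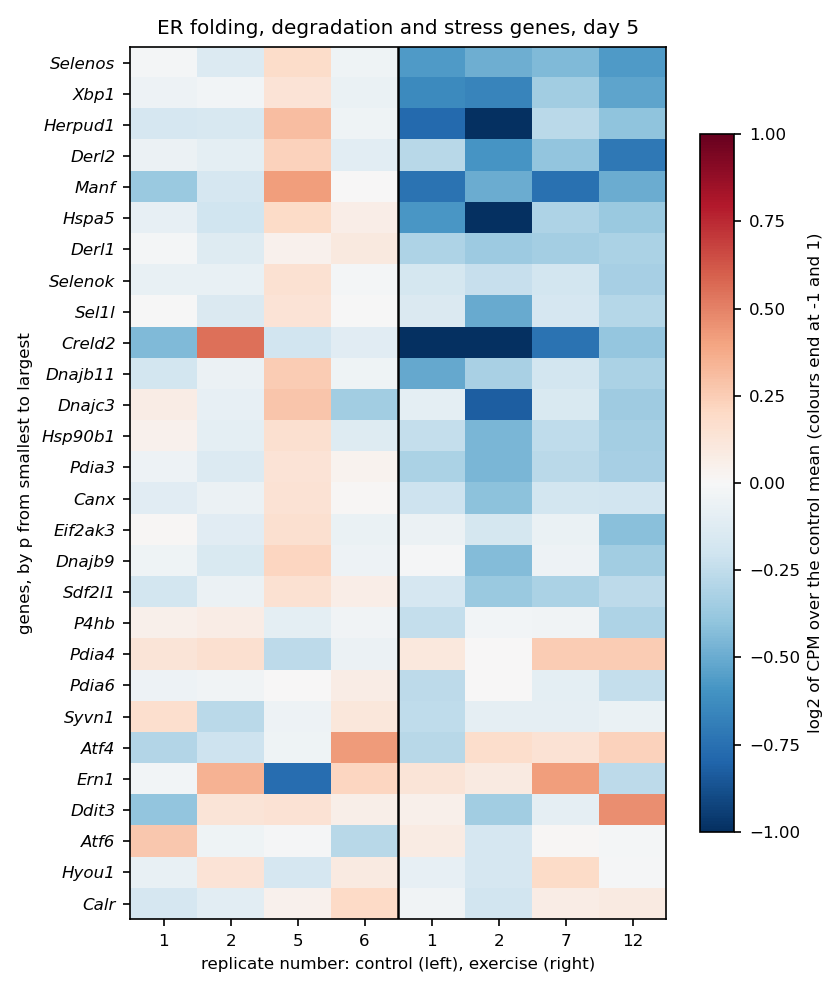
Expression of the 28 genes of ER folding, degradation and stress in each of the 8 libraries of day 5, as log2 of CPM over the control mean (colour), with genes ordered by p and libraries named by replicate number. In the upper 15 rows the 4 exercise columns are mostly blue, with exercise replicate 2 lowest for Hspa5 and Dnajc3, and control replicate 5 is the reddest control column in many rows; the lower rows show no such split.

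The promoters of these genes are known for the ER stress response element, at which NF-Y and the factors ATF6 and XBP1 bind. The motif searched was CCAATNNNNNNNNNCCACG on both strands, in the window from 250 bases before to 50 bases after each RefSeq start site (GRCm38.p6). It was present in 8 of the 24 ER folding genes with a promoter sequence (33.3%), in 37 of all 27025 genes with promoters of the same length (0.137%) and in none of the 23 such genes of the ER translocation list. Its 8 holders were Hspa5, Hsp90b1, Pdia6, Calr, Canx, Syvn1, Dnajc3 and Creld2, all with a log2 difference below 0 at day 5 (median -0.28), beside 24 of 28 and a median of -0.26 in the whole list. Among the 11085 tested genes with a promoter, 16 held the motif (0.144%), and of the 8 outside the ER lists 3 were below 0 (median 0.06). The stretches below show the element in 7 of these genes, from the largest differences (Creld2, Hspa5) to small ones (Pdia6, Syvn1), each on the strand of its gene from 5′ to 3′, with the CCAAT and CCACG parts, or their reverse complements, in capitals:
Creld2: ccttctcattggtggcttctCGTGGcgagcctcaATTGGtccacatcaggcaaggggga
Hspa5: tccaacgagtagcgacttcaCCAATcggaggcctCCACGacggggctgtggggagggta
Dnajc3: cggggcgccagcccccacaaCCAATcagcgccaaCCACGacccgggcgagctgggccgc
Canx: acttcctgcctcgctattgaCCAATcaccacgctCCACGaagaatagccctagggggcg
Pdia6: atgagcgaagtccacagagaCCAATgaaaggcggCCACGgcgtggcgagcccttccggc
Syvn1: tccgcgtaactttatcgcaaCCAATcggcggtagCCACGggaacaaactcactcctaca
Hsp90b1: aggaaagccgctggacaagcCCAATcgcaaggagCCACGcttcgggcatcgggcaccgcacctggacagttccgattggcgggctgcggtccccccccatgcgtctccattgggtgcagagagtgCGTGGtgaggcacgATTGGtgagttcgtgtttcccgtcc

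These stretches lie at chr15:88819500-88819558 (Creld2), chr2:34772005-34772063 (Hspa5), chr14:118937807-118937865 (Dnajc3), chr11:50325780-50325838 (Canx, minus strand), chr12:17266471-17266529 (Pdia6), chr19:6046512-6046570 (Syvn1) and chr10:86705513-86705676 (Hsp90b1, minus strand). In Creld2 the element reads in the opposite direction to the gene, and Hsp90b1 holds 1 copy in each direction, 212 and 107 bases before the start. The copy lay 65 bases before the start in Hspa5, 44 in Syvn1, 98 in Pdia6, 105 in Dnajc3, 126 in Creld2 and 145 in Canx. The log2 differences of the 8 genes ran from -1.05 in Creld2 to -0.01 in Calr, with Pdia6 at -0.15 and Syvn1 at -0.13. A match in the sequence is not evidence that a factor was bound.

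The translocation and glycosylation list, the machinery that brings new chains into the ER and adds sugars, was lower in 21 of its 29 members, with 7 past the unadjusted p lower and 1 higher and a median of -0.14. Its level per library was also apart between groups, at 6.35 to 6.41 mean log2 CPM in control and 6.23 to 6.32 in exercise. Besides Sec61b, Stt3b, a catalytic subunit of oligosaccharyltransferase, had 729, 659, 745 and 627 CPM in control and 540, 528, 529 and 478 in exercise, without overlap. Srpr, the receptor of the signal recognition particle, went the other way, with 70.3, 58, 46.8 and 45.3 CPM in control and 70.3, 64.1, 79.7 and 66.7 in exercise. Without control replicate 5 the members lower past the unadjusted p went from 7 to 2, without exercise replicate 1 or exercise replicate 12 to 4, and the median stayed between -0.19 and -0.11 with any 1 library left out. In the ER folding list the count stayed between 8 and 12 in those refits and the median between -0.28 and -0.20.

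Neuronal genes were mostly higher in exercise. In the list of neuronal cytoskeleton and axonal transport, the filaments and motors that fill axons, 21 of 22 members were higher (background 51.6%), 8 had an unadjusted p under 0.05, all higher, and the exercise libraries were above all control libraries in 9 (background 3.33%). The median log2 difference was 0.42. The mean log2 CPM of the list was 5.43, 5.4, 5.4 and 5.57 in control and 5.81, 6.13, 5.63 and 6.21 in exercise, without overlap. 

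Nefm, the medium neurofilament subunit (chromosome 14, 68082590 to 68124846, minus strand), had 19.4, 13.7, 11.7 and 19.8 CPM in control and 34.8, 49.5, 29 and 77.3 in exercise. Exercise replicate 12 was the highest and all 4 were above control; the log2 difference was 1.56 (SE 0.58, adjusted p 0.415 by edgeR). Nefh, the heavy subunit, had 31.2, 16.5, 20.3 and 26 CPM in control and 45.9, 52.1, 32.7 and 78.1 in exercise, and Nefl, the light subunit, had 72.4, 61.5, 83.1 and 114 in control and 113, 175, 106 and 252 in exercise. The same 2 exercise libraries, replicates 2 and 12, were highest for all 3 subunits. Kif21a, a kinesin motor, had 19.4, 14.9, 19.6 and 18.1 CPM in control and 38.5, 31.7, 26.7 and 31.9 in exercise (log2 0.84, SE 0.25, adjusted p 0.311 by edgeR), and Kif1a, which carries synaptic vesicle precursors, had 62, 62.8, 71.2 and 72 CPM against 86.9, 82.6, 82.1 and 109. Tubulin and tau did not differ to that extent, with Tubb3 at -0.01, Mapt at 0.10 and Uchl1, a neuronal hydrolase, at 0.06 on the log2 scale.

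The motor neuron and cholinergic list had the largest median among the neuronal lists, 1.09, with each of the 12 tested members (of 14 listed) higher and 5 past the unadjusted p. Chat, the enzyme that makes acetylcholine, was low in every library, with 3.02, 3.67, 2.23 and 2.69 CPM in control and 5.06, 7.6, 3.86 and 10.4 in exercise. Slc5a7, the choline transporter that feeds it, had 23.3, 12.2, 16.1 and 10.9 CPM in control and 39.7, 47, 22.6 and 45.6 in exercise, overlapping at 1 library each. Ret, the receptor for ligands of the GDNF family that motor and sensory neurons carry (chromosome 6, 118151745 to 118197718, minus strand), had 22.2, 16.1, 13.4 and 13.8 CPM in control and 37.3, 47.3, 31.7 and 43.4 in exercise. All 4 exercise libraries were above control, and the log2 difference was 1.28 (SE 0.31, adjusted p 0.268 by edgeR). Uts2, a peptide of motor neurons, had 7, 3.33, 2.23 and 4 CPM in control and 20.1, 12.5, 9.26 and 20.3 in exercise (1.91, SE 0.88, adjusted p 0.486 by edgeR). Calca, the gene of the peptide CGRP, had 41.2, 13.9, 13.6 and 17 CPM in control and 51.6, 77, 35.8 and 44.9 in exercise, where control replicate 1 alone reached the exercise range.

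All 16 genes of the list of axonal ion channels and pumps were higher, with a median of 0.74 and 4 past the unadjusted p. The channels carry the action potential along axons, and the list also holds the scaffold and adhesion genes Ank3, Sptbn4, Cntn1 and Cntnap1. Kcna1, a potassium channel of the stretches beside nodes, had 123, 108, 119 and 106 CPM in control and 178, 170, 133 and 146 in exercise, and its partner Kcna2 overlapped by a small margin with 19.6, 27, 17.1 and 25.8 against 33, 42.1, 25.4 and 46.4. Scn8a, the sodium channel of mature nodes, had 12.1, 5.75, 13.8 and 20.3 CPM in control and 17.7, 41.4, 16.2 and 35.3 in exercise, so that replicates 2 and 12 again held the top values. Of the 20 genes of synaptic vesicles and transmitters 18 were higher, with a median of 0.57 and 2 past the unadjusted p, Vamp1 (1.34) and Gad2 (1.75), both of which overlapped. Gad2 was at most 2.28 CPM in the other 7 libraries but 5.99 CPM in exercise replicate 12, without which its log2 difference was 1.

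The peptide and interneuron genes of the dorsal horn were higher in 6 of 8 tested members of 12 listed, with a median of 0.09 (0.02 to 0.35 with 1 library left out, highest without control replicate 1) and 1 past the unadjusted p. That gene was Tac1, the precursor of substance P, and it was lower: 7.16, 4.92, 3.12 and 5.96 CPM in control, 0, 0, 2.8 and 1.84 in exercise (90, 59, 35 and 82 counts against 0, 0, 29 and 20). The log2 difference was -2.15 (SE 0.83, adjusted p 0.424 by edgeR). Penk, the precursor of enkephalin, had 0.557, 0.333, 0.267 and 2.33 CPM in control and 3.52, 0.507, 2.12 and 1.47 in exercise, with wide overlap. The neuronal counts rested in part on exercise replicates 12 and 2. Without replicate 12 the members past the unadjusted p went from 8 to 2 in the cytoskeleton list, from 5 to 3 in the motor neuron list, from 4 to 1 among the channels and from 2 to 0 in the synaptic list, and the medians to 0.31, 0.88, 0.47 and 0.44. Without replicate 2 they were 3, 4, 2 and 2, without control replicate 5 they were 5, 4, 2 and 1, without control replicate 2 they were 6, 3, 2 and 0, without control replicate 1 they were 6, 5, 3 and 1, and without control replicate 6 they were 8, 4, 3 and 6. The 4 medians were above 0 in every one of these refits.

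**Figure D4:**
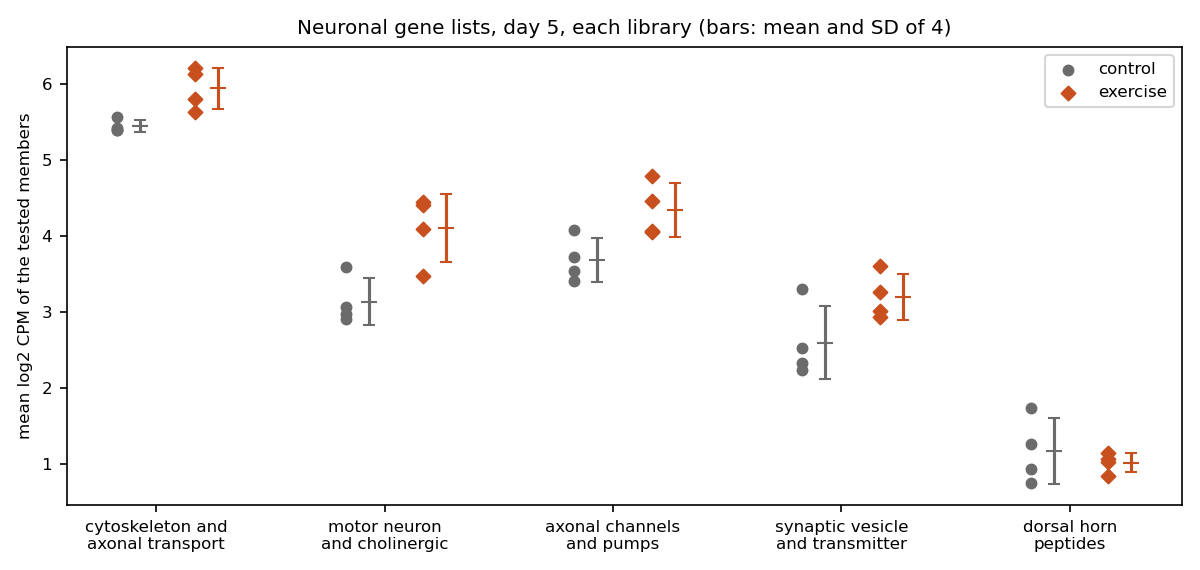
Mean log2 CPM of the tested members of 5 neuronal gene lists in each library of day 5 (grey circles, control; orange diamonds, exercise), with the mean and SD of 4 libraries beside them. Exercise libraries lie above all control libraries for cytoskeleton and axonal transport only; in the motor neuron, channel and synaptic lists 1 control library reaches into the exercise range, and the dorsal horn list shows no such shift.

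Transcripts of the mitochondrial genome, which encode the core subunits of the respiratory chain, were higher in 8 of the 9 tested genes (of 13 listed), with a median of 0.35. Past the unadjusted p 5 were higher (55.6%, background 4.9%) and 0 lower. mt-Nd5, a proton-pumping subunit of complex I (positions 11742 to 13565 of the mitochondrial chromosome), had 58.6, 71.6, 62.5 and 74.8 CPM in control and 89.6, 102, 114 and 134 in exercise. mt-Atp8, a small subunit of ATP synthase whose reading frame overlaps that of mt-Atp6, had 12.7, 15.7, 12.9 and 13.2 CPM in control and 22, 22.6, 25.5 and 34 in exercise. Neither overlapped between groups, with log2 differences of 0.71 (SE 0.15, adjusted p 0.234 by edgeR) and 0.93 (SE 0.23, adjusted p 0.268 by edgeR). mt-Cytb (0.42), mt-Nd1 (0.30) and mt-Nd2 (0.43) were past the unadjusted p with overlapping groups (mt-Nd1 at 0.19 and mt-Nd2 at 0.27 without exercise replicate 12), while mt-Co1 (0.12) and mt-Nd4 (0.18) were not. The share of mt-Rnr2 was also higher in exercise, as given above, and its part in these differences was not tested. Without exercise replicate 12 or control replicate 1 the number past the unadjusted p was 2, and without control replicate 2 it was 3; the median over all refits with 1 library left out was 0.23 to 0.46.

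Of 71 nuclear genes of the respiratory chain 38 were higher and 33 lower, with a median of 0.01. Past the unadjusted p 4 were higher (5.63%, background 4.9%) and 7 lower (9.86%, background 5.12%). The 4 became 2 without control replicate 2 or 5 or exercise replicate 2 and 1 without exercise replicate 12, and the 7 became 4 without control replicate 2 or exercise replicate 7 and 3 without control replicate 5 or exercise replicate 1. Cox5a had 104, 131, 102 and 87.2 CPM in control and 114, 231, 147 and 147 in exercise, and Cox6c, also a subunit of complex IV, had 169, 167, 182 and 159 CPM in control and 124, 150, 117 and 115 in exercise. Ppargc1a, which encodes PGC1a, had 3.26, 5.75, 4.1 and 4.14 CPM in control and 6.5, 9.63, 5.4 and 8.84 in exercise. Its groups overlapped at 1 library each, and the log2 difference was 0.81 (SE 0.28, adjusted p 0.37 by edgeR). It was the only one of the 22 tested genes of the PGC1a axis past the unadjusted p, and the list's median was 0.06. Fatty acid oxidation had 3 of 24 genes higher (12.5%, background 4.9%) and 1 lower (4.17%, background 5.12%) at that p, led by Acox3, and a median of 0.07. The 3 became 1 without control replicate 2 and 2 without control replicate 5 or 6 or exercise replicate 2, 7 or 12. Etfdh, which passes electrons from fat oxidation to ubiquinone, had 21.6, 21.1, 20.9 and 19.6 CPM in control and 25.9, 28.6, 24.1 and 25.5 in exercise, without overlap.

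Ribosomal protein genes were lower more often than higher (background 48.4% lower). Of 78 cytosolic ones 58 were lower, with 14 lower (17.9%, background 5.12%) and 2 higher (2.56%, background 4.9%) past the unadjusted p and a median of -0.11. Of 76 mitochondrial ones 56 were lower, with 12 lower (15.8%) and 0 higher past that p and a median of -0.13. The mean log2 CPM per library overlapped between groups in both lists. It was 6.59 ± 0.15 in control and 6.44 ± 0.13 in exercise for the cytosolic list (SD, n = 4 each). For the mitochondrial list it was 4.21 ± 0.1 and 4.06 ± 0.13. Rps15, a protein of the small subunit, had 296, 350, 342 and 336 CPM in control and 230, 250, 213 and 223 in exercise, without overlap (log2 -0.53, SE 0.15, adjusted p 0.311 by edgeR). Rpl36, of the large subunit, had 302, 292, 335 and 355 CPM in control and 215, 260, 214 and 194 in exercise, and Mrpl3, of the mitochondrial ribosome, had 177, 186, 250 and 174 CPM in control and 124, 139, 147 and 144 in exercise. The differences were not uniform, since Rpl4 was higher in all 4 exercise libraries (2160, 2160, 2150 and 2270 CPM) than in control (1940, 1520, 1350 and 2080 CPM). Many of these genes have near-identical processed copies, so that their single counts are uncertain. The 14 cytosolic members became 6 without exercise replicate 1, 7 without control replicate 5, and 9 without control replicate 6 or exercise replicate 7. The 12 mitochondrial members became 6 without exercise replicate 1, 7 without control replicate 6 and 8 without control replicate 2 or 5, and both medians stayed below 0.

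Proteasome genes were lower in 27 of 38 (background 48.4%), with a median of -0.09. Past the unadjusted p 3 were lower (7.89%, background 5.12%) and 1 higher (2.63%, background 4.9%), so these shares lay near those of all genes. In 8 of the 38 every exercise library was below control (background 3.97%). Psmd6, of the regulatory particle, had 130, 154, 167 and 147 CPM in control and 114, 120, 123 and 117 in exercise. Among importins and exportins, besides Ipo11, Kpna1, an adaptor of classical nuclear import, had 212, 204, 252 and 202 CPM in control and 183, 167, 182 and 152 in exercise, while Xpo5, the exporter of microRNA precursors, was higher with 13.8, 14.7, 12.7 and 15.1 against 15.7, 19.5, 19.9 and 21.4 CPM. Neither gene overlapped between groups. Without control replicate 5 the importins and exportins lower past the unadjusted p went from 4 to 1, and without exercise replicate 12 the proteasome genes went from 3 to 5. In the authors' deposited table the lower genes with the smallest adjusted p included Tmem189 (log2 -0.49), Arpc5 (-0.63), a subunit of the Arp2/3 actin nucleator, and Slc25a5 (-0.53), the mitochondrial ADP/ATP exchanger. In the counts analysed here, Arpc5 had 2090, 1980, 2410 and 1740 CPM in control and 1230, 1430, 1450 and 1210 in exercise, and Slc25a5 had 765, 730, 806 and 618 CPM against 527, 482, 506 and 512. Scand1 was at -2.77 in that table, and went from 6.36, 7.33, 16.4 and 6.9 CPM to 0.361, 2.28, 0.964 and 1.93 CPM here. Adam11, a neuronal surface protein without protease activity, was higher there by 1.29 and had 4.77, 6.08, 4.28 and 6.61 CPM in control and 15.8, 11.7, 12.3 and 13.7 in exercise.

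Genes of the oligodendrocyte lineage, whose renewal repairs the lesion, had medians near that of all genes (0.01) at day 5. Of 16 precursor genes 8 were higher and 8 lower, with a median of 0. Past the unadjusted p 1 was higher (6.25%, background 4.9%) and 2 were lower (12.5%, background 5.12%). The 2 became 0 without control replicate 5 or exercise replicate 7, and 1 without control replicate 1, 2 or 6 or exercise replicate 1 or 12. Olig2, the transcription factor that marks the lineage, had 89, 111, 136 and 131 CPM in control and 81.3, 110, 89.6 and 89.8 in exercise (log2 -0.34, SE 0.14, adjusted p 0.447 by edgeR), and Pdgfra, the receptor that drives precursor division, had 169, 170, 184 and 140 CPM against 127, 143, 133 and 147. In both genes the exercise libraries reached into the control range. Tnr, a matrix protein of the same cells, was the member higher, with 152, 138, 106 and 211 CPM in control and 234, 204, 184 and 244 in exercise. Of 23 genes of mature oligodendrocytes and myelin 15 were higher, with a median of 0.07. Past the unadjusted p was 1 in each direction (4.35% each), Prune2 higher and Trf (-0.38) lower. The lower count was 0 without control replicate 2 or exercise replicate 12. Mbp, myelin basic protein, had 4120, 6240, 4990 and 5100 CPM in control and 7330, 5290, 4850 and 6320 in exercise, a log2 difference of 0.22 (SE 0.19, adjusted p 0.723 by edgeR). Myrf, the factor that starts myelin gene expression, had 29.4, 28.1, 29.3 and 37.8 CPM in control and 40.4, 37.8, 45.6 and 39.5 in exercise, meeting at a single value.

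Most immune and astrocyte lists lay near or under the background. Homeostatic microglia (15 genes, median -0.02), monocyte-derived macrophages (14, 0.02), phagocytosis and lipid handling (22, -0.03), astrocytes (15, 0.03) and interferon response (20, 0.09) had 0 members past the unadjusted p. The lysosomal marker Cd68 had 1080, 1010, 874 and 1310 CPM in control and 1070, 1130, 1190 and 1200 in exercise. Of 15 inflammatory mediators 2 were lower at that p (13.3%, background 5.12%) and 0 higher. They were Ccl7 (-0.83), a monocyte attractant, and Il1a (-0.43), a cytokine of activated microglia, both with overlap. The lower count was 0 without control replicate 1 or 5 or exercise replicate 1 or 2, and 1 without control replicate 6. Reactive astrocyte genes were mixed. Of the 15 tested, Pdpn and Lcn2 (1.01) were higher at that p (13.3%, background 4.9%) and Vim was lower (6.67%, background 5.12%). The 2 higher became 1 without control replicate 1 or exercise replicate 2, 3 without control replicate 2 and 4 without exercise replicate 1, and the 1 lower became 0 without control replicate 2 or 5 or exercise replicate 1 or 7. Vim, the intermediate filament of reactive glia, had 1880, 2370, 2140 and 1880 CPM in control and 1300, 1830, 1640 and 1650 in exercise, without overlap. In the endothelial list of 17 genes Cldn5, the main tight junction protein, was lower at that p (-0.50), a share of 5.88% (background 5.12%). Emcn (0.44) and Tek (0.67), both surface proteins of the vessel wall, were higher, a share of 11.8% (background 4.9%). All of these had overlapping groups, and the list's median was 0.07. The 2 higher became 1 without control replicate 2 or 5 and 0 without control replicate 6 or exercise replicate 2 or 12, and the 1 lower became 0 in 6 of the 8 such refits (all but those without control replicate 6 and exercise replicate 2). Mcm7 (-0.49) was the only one of 22 cell-cycle genes past the unadjusted p, with every exercise library below control, and it was past it in none of the refits without control replicate 2 or 5 or exercise replicate 2 or 7; none of the 15 growth factor genes was past it.

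The day 10 libraries give the same contrast in other samples; the comparisons share no library, only the estimate of the spread. Of the 12 higher genes 11 were higher at day 10 as well (background 52.1%), 5 with an unadjusted p under 0.05 (background 7.25%), and the median fell from 0.72 to 0.21. Of the 12 lower genes 11 were lower again (background 47.9%), 4 at that p (background 5.56%), and the median went from -0.52 to -0.17. Medians nearer to 0 at day 10 are favoured in both sets by their choice by the day 5 p. Arid1b (0.90 and 0.82) and Lmo4 (-0.58 and -0.54) had nearly equal differences at both days, whereas Tmem160 (-1.09 and 0.26) and Timm9 (0.69 and -0.12) changed sign. The interaction of running with day was called for 0% of genes by edgeR's adjusted p and had an unadjusted p under 0.05 for 9.11% of them. It was past that unadjusted p in 8 of the 12 higher and 8 of the 12 lower genes, which their choice by the day 5 p favours.

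The neuronal and ER lists had other medians at day 10. Over the 69 genes of the cytoskeleton, motor neuron, channel and synaptic lists, 46 were higher at day 5 and lower at day 10, 20 were higher at both, and the medians were 0.62 and -0.15. Of all genes tested, 51.6% were above 0 at day 5 and 52.1% at day 10, and their split over both days was not counted. Both the neuronal and the ER lists were chosen with earlier results of these data known. At the unadjusted p the interaction held 7 of the 16 channel genes, 4 of the 12 motor neuron genes, 2 of the 22 cytoskeleton genes and 2 of the 20 synaptic genes, beside 9.11% of all genes. Nefm, with the large difference given above, was at -0.04 at day 10, where its exercise libraries spread widely. It had 15.9, 16.5, 6.24 and 17.4 CPM in control and 34.6, 2.24, 12.2 and 5.48 in exercise, the highest in exercise replicate 13. No refit left out a library of day 10, so how far these day 10 values rest on single libraries was not tested. In the ER folding list 18 of 28 genes were lower at day 5 and higher at day 10, the medians were -0.26 and 0.22, and the interaction had an unadjusted p under 0.05 in 16 of 28 genes. At day 10, 9 members were past the unadjusted p, all higher, beside 7.25% of all genes. Hspa5 went from -0.54 at day 5 to 0.52 at day 10, Manf from -0.61 to 0.41 and Creld2 from -1.05 to 1.01, with interaction adjusted p-values by edgeR of 0.4, 0.4 and 0.445. Hyou1, level at day 5, was 0.74 higher at day 10. Selenos and Herpud1, at -0.13 and -0.03, kept their sign with a smaller difference.

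**Figure D5:**
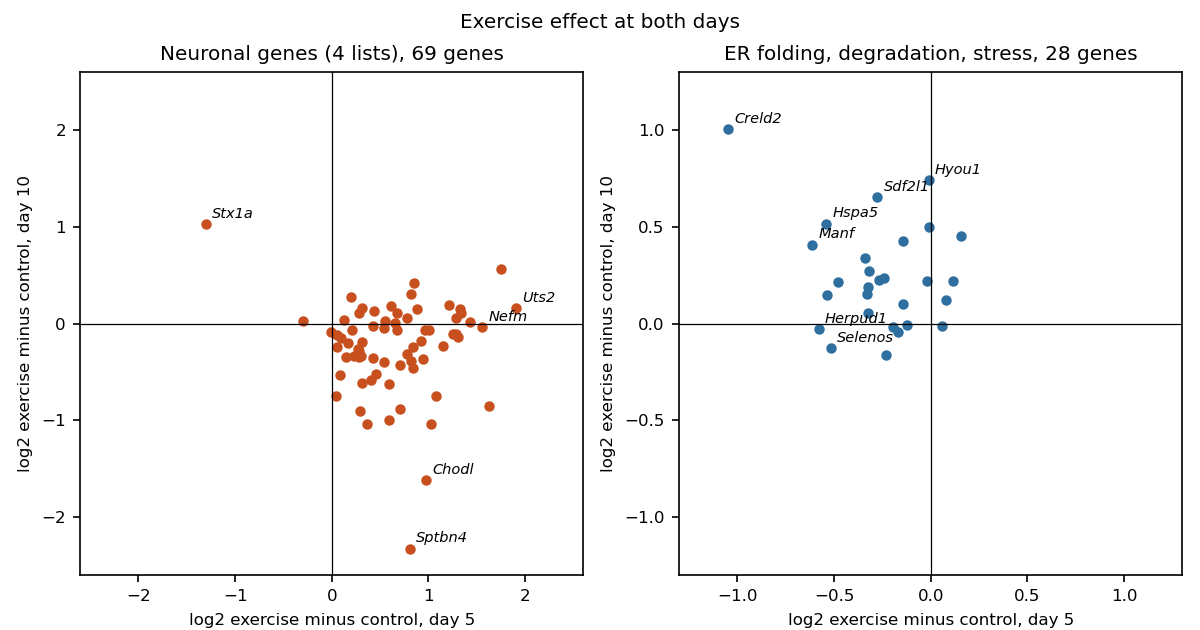
Log2 difference of exercise minus control at day 5 (horizontal) and day 10 (vertical) for 69 neuronal genes (left) and 28 ER folding, degradation and stress genes (right); each point is a gene, and a few are named. Most neuronal points lie to the right of 0, with 46 of 69 in the lower right quadrant, and 18 of 28 ER points lie in the upper left quadrant. The quadrants were not counted over all genes.

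Differences varied with gene length, though not evenly. Genes of up to 500 bases of exonic length had a median of 0.02, with 6.7% lower and 5.67% higher at the unadjusted p. Genes with an exonic length of 500 to 1000 bases had a median of -0.04, with 8.69% lower and 4.08% higher at the unadjusted p, while genes over 8000 bases had a median of 0.05, with 3.23% lower and 6.97% higher. With the trend of each library against gene length and GC content removed, 542 genes were higher and 1060 lower at that p, and 0 were called by edgeR's adjusted p. The list medians under that correction were -0.27 for ER folding, 1.06 for motor neurons, 0.35 for cytoskeleton, 0.63 for channels and 0.40 for the mitochondrially encoded genes. Over all genes the median was then -0.03, beside 0.01 without the correction.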

How the data were processed

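RNA was measured by RNA-seq in 8 laser-dissected lesions of day 5 and 8 of day 10. The submitters' processing notes name FastQC 0.11.4, TopHat2 2.0.10, Bowtie 1.1.2, featureCounts 1.5.0-p1, DESeq2 1.12.4 and the build GRCm38. The deposited table holds raw read counts per gene, per the file headers. The authors' deposited day 5 table gives log2 fold changes and p-values, and its base mean is a normalized signal; these are quoted only where that table is named. Amplification before sequencing means that counts are not independent molecules, and each library's depth (8.13 to 13.93 M) bounds counting error only.

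Counts were scaled by TMM, filtered (minimum count 10, minimum total 15) and tested with edgeR 4.0.16 (robust quasi-likelihood, R 4.3.3), with 1 mean per group over 16 libraries, 12 residual degrees of freedom, Benjamini-Hochberg adjustment over 15096 genes and a threshold of 0.05. The test was checked on simulated counts. CPM values are counts per 1000000 of the effective library size (M in the text). DESeq2 1.42.0 and limma 3.58.1 (voom), other filters and scalings, equal depth, a replicate block and each library left out were alternatives; removal of the trend with gene length and GC content was chosen after seeing the data.

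The members and lists were chosen with earlier results of these data known. Named genes are the 12 higher and 12 lower with the smallest p, the 3 members of each list with the smallest p, a short list of known genes, and the 8 higher and 8 lower leaders of the authors' table. Other list members named in the text were chosen after their values were seen. Lists were counted, not tested. Promoter sequences are from RefSeq (GRCm38.p6).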

Additional observations from a re-analysis of the deposited data

Results flagged for a closer look

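In each case below 1 library of a group of 4 lay far from the other 3 by Dixon's criterion, which flags about 1 group in 20 by chance; of 240 groups checked 13 stood out, a share near that. Control replicate 5 was the high library for Gpn3 (38 CPM, the others 27.8 to 28.7), Scand1 (16.4 CPM, the others 6.36 to 7.33), Mrpl3 (250 CPM, the others 174 to 186), Derl2 (94.2 CPM, the others 74.5 to 77.2) and mt-Nd1 (409 CPM, the others 358 to 360). In control replicate 1, Calca stood at 41.2 CPM over 13.6 to 17 in the others. In control replicate 2, mt-Atp8 stood at 15.7 CPM over 12.7 to 13.2. In control replicate 6, Myrf stood at 37.8 CPM over 28.1 to 29.4 and Penk at 2.33 CPM over 0.267 to 0.557.

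Among the exercise libraries, replicate 12 was high for Rpl4 (2270 CPM, the others 2150 to 2160). Low values stood out for Canx in exercise replicate 2 (493 CPM, the others 565 to 576), Mapt in replicate 7 (139 CPM, the others 167 to 171) and Syvn1 in replicate 1 (7.67 CPM, the others 8.58 to 8.75).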

How the results depend on the processing

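The number of genes called was 0 by edgeR under every scaling, filter, depth and length setting tried and by limma-voom, but 268 by DESeq2 on the 8 libraries and 75 by DESeq2 on all 16. DESeq2 on 16 libraries also called 9 genes for the interaction with day. With 1 library left out, edgeR called 0 to 1 genes at day 5 (the 1 was Prune2, without exercise replicate 7) and 0 to 1 for the interaction (the 1 without exercise replicate 1). Genes higher at the unadjusted p numbered 545 to 790 and lower genes 469 to 786 in those fits, both lowest without control replicate 5. Removing the trend with gene length and GC content turned the split of 740 higher and 773 lower genes into 542 and 1060; the cause was not tested.

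Only replicate numbers 1 and 2 occur in both groups, and same-numbered libraries did not deviate together (correlations 0.07 and -0.03). With the replicate number as a block, the exercise difference therefore rests only on replicates 1 and 2 of each group. The libraries with other numbers are alone in their blocks and do not inform it, so the block values below do not describe all 8 libraries. In that fit edgeR called 0 genes, with 659 higher and 595 lower at the unadjusted p. The blocks leave it far fewer residual degrees of freedom than the 12 of the main fit. Its counts past the unadjusted p are therefore not comparable with those of the main fit. Under the block the cytosolic ribosomal proteins changed direction, with 42 of 78 higher, 5 higher and 4 lower at the unadjusted p and a median of 0.03 (main -0.11), and 8 of 11 fibroblast and meningeal genes were lower at that p (main 0, median -0.56 against 0.08). Other medians were 0.28 for homeostatic microglia (main -0.02), 0.25 for mature oligodendrocytes (0.07), -0.42 for macrophages (0.02), -0.56 for neutrophils (0.33), -2.19 for the 1 erythrocyte gene tested (-0.41), -0.02 for fatty acid oxidation (0.07) and -0.35 for immediate early genes (-0.07). The mitochondrial ribosomal (-0.1), ER folding (-0.19), ER translocation (-0.12), cytoskeleton (0.46), motor neuron (1), channel (0.66), synaptic (0.77) and mitochondrially encoded (0.38) lists kept the sign of their medians. Members higher at that p became 13 of 22 for cytoskeleton, 10 of 16 for channels and 10 of 20 for the synaptic list, and members lower became 7 of 76 for mitochondrial ribosomal proteins, 1 of 38 for the proteasome and 2 of 24 for importins and exportins. The block turned Calr to 0.04, Ern1 to -0.03 and Pdia4 to -0.07.

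Some small differences changed sign when 1 library was left out: Atf4 ranged from 0 to 0.26, Atf6 from -0.1 to 0.09, Calr from -0.06 to 0.07, Ddit3 from -0.11 to 0.16, Ern1 from -0.07 to 0.25, Hyou1 from -0.08 to 0.04 and Tubb3 from -0.11 to 0.08.

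Depth limits low genes: in the shallowest library, 8.13 M counts, genes near 1 CPM rest on few reads.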
